A study of Homo sapiens with 6 samples.

Results

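A set of 10 genes that encodes surface proteins of monocytes and other phagocytes was followed across 6 RNA-seq libraries of KO52 cells. Its members were taken by name, a choice made with earlier results of these data known. They include the lipopolysaccharide co-receptor CD14, the IgG receptors FCGR1A and FCGR2A, and the signalling adaptors FCER1G and TYROBP. The others are the leukocyte integrin chains ITGAM, ITGAX and ITGB2, and the toll-like receptors TLR2 and TLR4. Together they are 10 of the 60612 genes in the count files, of which 15395 had enough reads to be tested. Of the 10, 9 were tested, and CD14 was not because its counts were too low. RNA was measured, not surface protein.

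KO52 is an established acute myeloid leukaemia cell line that carries CEBPA mutations on both alleles, so all 3 groups share this genotype. The cells were transduced with a lentiviral, doxycycline-inducible vector that carried either a dominant negative C/EBP peptide (dnCEBP), a dominant negative FOS peptide (dnFOS) or no peptide (the GFP-expressing empty vector, EV), with 2 libraries in each group. The study states that these peptides form dimers with several C/EBP or AP-1 family members, respectively, and so keep those factors off DNA. According to the study's text, cells were treated with doxycycline and sorted for GFP before RNA was taken, and an induction time is stated there for the chromatin measurements with dnCEBP but not separately for the RNA libraries. Because nothing in the labels places the 2 libraries of a group in separate cultures, p-values measure the spread between these libraries, which may be technical.

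Phagocytes recognise particles coated with antibody through Fc receptors, particles coated with complement through integrins that pair an alpha chain with the beta chain ITGB2, and microbial products through toll-like receptors. Many of their activating receptors have no signalling tail and rely on FCER1G or TYROBP, adaptors whose immunoreceptor tyrosine-based activation motif (ITAM) is phosphorylated by SRC family kinases and then binds the kinase SYK. In myeloid development, genes of this kind are activated as progenitors mature, under PU.1, C/EBP and AP-1 factors among others.

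The cells expressed this set only in part. CD14 had between 0 and 6 reads per library, and CD163, a further marker of monocytes and macrophages, had 0 reads in every library. The progenitor and blast markers CD34, KIT, CD33 and MPO were all tested. Their summed level was 403 to 452 CPM in EV, 268 to 291 CPM in dnCEBP and 324.5 to 350 CPM in dnFOS. CPM are counts relative to library size, scaled by the trimmed mean of M-values, as for every CPM value here. Of these markers, MPO was lower than in EV, with log2 fold changes of -1.89 in dnCEBP and -0.56 in dnFOS (edgeR adjusted p of 5.03e-13 and 0.000273). CD34, KIT and CD33 had edgeR adjusted p above 0.05 in both comparisons with EV as fitted. For CD34 in dnFOS the log2 fold change was -0.22, with an edgeR adjusted p of 0.0746. With a trend over GC content and transcript length removed it was -0.24, with an edgeR adjusted p of 0.0235. Of the other monocyte markers listed, LYZ was abundant, at 53.2 to 78.5 CPM, and CSF1R and VCAN were low, at 0.456 to 2.34 CPM, so the monocyte list was expressed in part. Total counts ran from 21681121 to 27663179 in the EV and dnCEBP libraries and were 14583615 and 9862994 in the dnFOS libraries, so values in dnFOS rest on fewer reads. The small RNA RN7SL1 took 7.75% to 7.94% of the counts in EV and dnCEBP but 6.12% and 4.31% in dnFOS. In such bulk samples, fewer cells of a type and less RNA per cell cannot be told apart.

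Changes in the set were seen with dnFOS and not with dnCEBP at the threshold used, an adjusted p under 0.05 in edgeR's quasi-likelihood test with Benjamini-Hochberg adjustment over all genes tested. In dnFOS against EV, 6 of the 9 tested genes passed it, beside 15% of all genes tested, with 1 higher (ITGAM, beside 7.24% of all genes) and 5 lower (FCGR2A, FCER1G, TYROBP, ITGAX and ITGB2, beside 7.76%). In dnCEBP against EV, 0 of 9 passed, beside 1.07% of all genes tested. At an unadjusted p under 0.05, 4 of the 9 were counted in dnCEBP (FCGR2A, ITGAM, ITGAX and ITGB2), beside 11.9% of all genes tested, and both DESeq2 and limma-voom called 0. Both comparisons share the EV libraries. Compared directly, dnFOS and dnCEBP differed at 6 of 9 genes, beside 14.7% of all genes tested, with 2 higher in dnFOS (ITGAM and TLR4, beside 6.83%) and 4 lower (FCGR2A, FCER1G, TYROBP and ITGAX, beside 7.84%). The median log2 fold change of the 9 genes was -0.45 in dnFOS and -0.17 in dnCEBP against EV, beside medians of 0.004 and -0.002 over all genes tested.

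**Figure D1:**
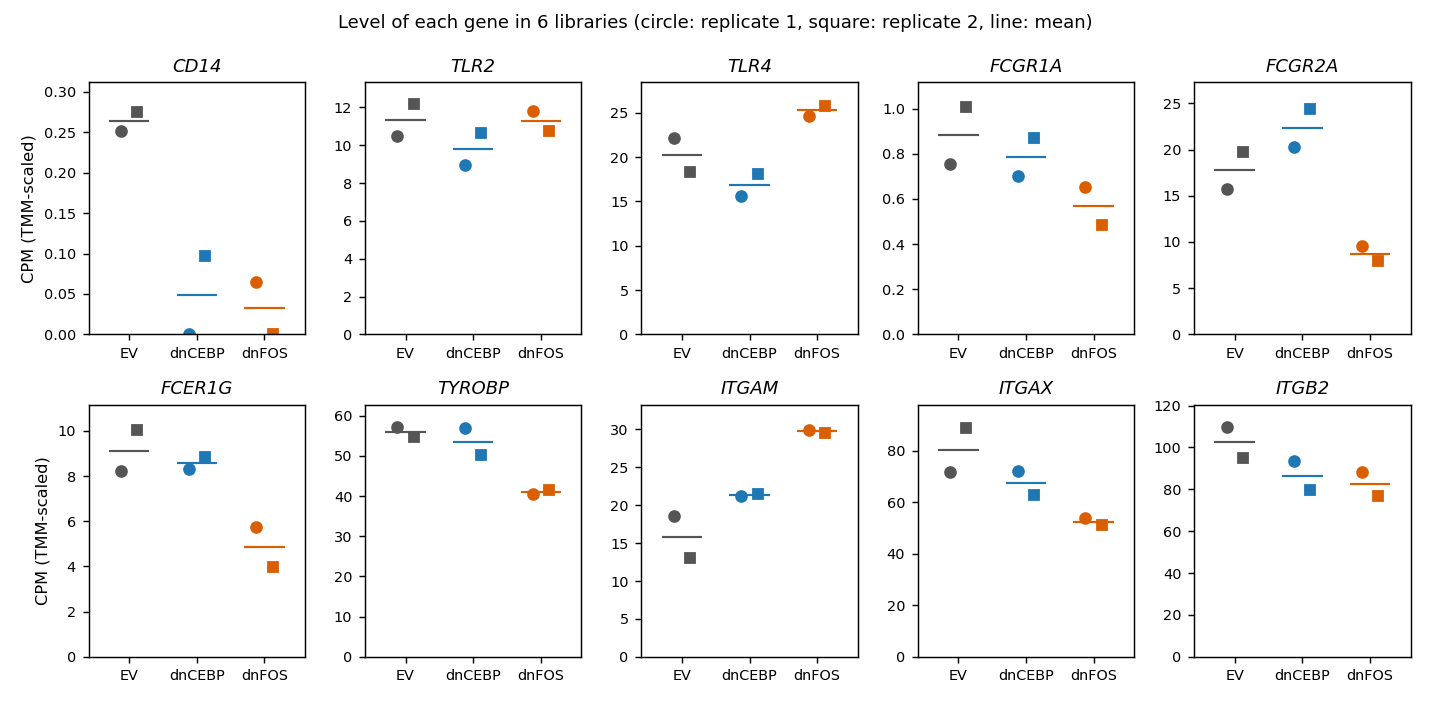
Level of each of the 10 genes in CPM (vertical axis, its own scale in each panel, starting at 0) in the EV, dnCEBP and dnFOS libraries, with replicate 1 as a circle, replicate 2 as a square and the group mean as a line. The dnFOS libraries lie below all others for FCGR1A, FCGR2A, FCER1G, TYROBP and ITGAX and above all others for ITGAM and TLR4. The FCGR1A values in dnFOS rest on 10 and 5 reads.

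**Figure D2:**
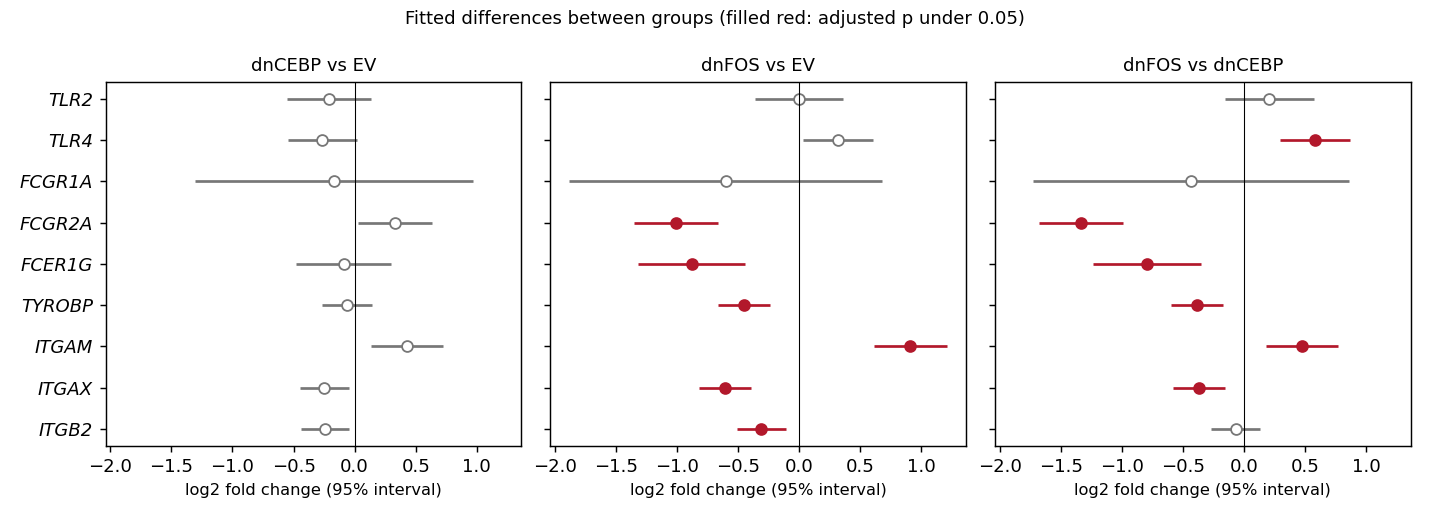
Log2 fold change of the 9 tested genes in the 3 comparisons, with 95% intervals as lines. Filled red points have an adjusted p under 0.05: there are 0 in dnCEBP against EV and 6 in each comparison with dnFOS.

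Per kilobase of exon, the 10 genes spanned a wide range. TYROBP was the most abundant, with 60.4 to 63.1 CPM per kb in EV, and ranked at the 97.1 percentile of the genes tested over all 6 libraries. ITGB2 followed at 14.0 to 16.2 CPM per kb in EV. ITGAX, at 10.2 to 12.6 CPM per kb in EV, and FCER1G, at 8.53 to 10.4, overlapped each other. FCGR2A, at 2.97 to 3.72 CPM per kb in EV, overlapped ITGAM, at 2.29 to 3.28, which in turn overlapped TLR2, at 2.01 to 2.33. TLR4 stood at 1.38 to 1.67, FCGR1A at 0.252 to 0.336 and CD14 at 0.134 to 0.146 CPM per kb in EV. The exon length used joins the exons of all annotated transcripts, which is 13272 bases for TLR4 and lowers its value per kb. In dnFOS the order in the middle changed: ITGAM, at 5.20 to 5.27 CPM per kb, stood above TLR2, at 2.06 to 2.26, while FCGR2A, at 1.49 to 1.80, lay below both TLR2 and TLR4, the latter at 1.86 to 1.95.

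The upstream sequences of the genes called in dnFOS are shown because the peptides act on factors that bind DNA. RefSeq promoter windows on GRCh38.p14 held 8 of the 10 genes, all but ITGAX and ITGB2. The 250 bases before each RefSeq start were searched on both strands for the letters TGANTCA (AP-1), TTNNGNAA (C/EBP), TGATGCAA (the C/EBP:AP-1 composite) and GAGGAAG (PU.1), where N is any base. The 4 called genes with a window are printed 5′ to 3′ on the strand of the gene, up to the base before the gene starts in GENCODE 29, with motif matches in capitals. They lie at chr1:161505207-161505429 (FCGR2A, plus strand), chr1:161215045-161215233 (FCER1G, plus strand), chr19:35908296-35908545 (TYROBP, minus strand) and chr16:31259725-31259966 (ITGAM, plus strand).
FCGR2A: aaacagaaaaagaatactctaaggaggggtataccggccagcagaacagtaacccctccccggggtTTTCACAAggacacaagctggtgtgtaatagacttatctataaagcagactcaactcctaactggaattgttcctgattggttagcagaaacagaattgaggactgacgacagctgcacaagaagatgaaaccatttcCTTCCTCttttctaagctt
FCER1G: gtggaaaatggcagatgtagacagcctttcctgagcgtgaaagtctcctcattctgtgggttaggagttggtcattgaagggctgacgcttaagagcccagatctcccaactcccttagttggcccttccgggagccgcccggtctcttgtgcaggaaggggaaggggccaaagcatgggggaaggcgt
TYROBP: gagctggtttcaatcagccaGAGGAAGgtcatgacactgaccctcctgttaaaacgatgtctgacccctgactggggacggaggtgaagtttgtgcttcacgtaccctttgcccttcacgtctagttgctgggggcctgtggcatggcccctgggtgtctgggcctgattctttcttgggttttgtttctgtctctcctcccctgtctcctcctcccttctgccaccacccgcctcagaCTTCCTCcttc
ITGAM: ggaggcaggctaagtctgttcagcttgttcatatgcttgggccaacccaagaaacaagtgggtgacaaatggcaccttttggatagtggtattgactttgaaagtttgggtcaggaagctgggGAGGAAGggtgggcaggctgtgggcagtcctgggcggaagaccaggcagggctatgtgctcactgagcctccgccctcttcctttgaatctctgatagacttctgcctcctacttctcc
The capitals in FCGR2A are TTTCACAA, which matches the C/EBP letters when read on the opposite strand, at 184 to 177 bases before the RefSeq start, and CTTCCTC, the PU.1 letters read on the opposite strand, at 46 to 40 bases. TYROBP held the PU.1 letters at 230 to 224 and at 11 to 5 bases before its start, and ITGAM at 127 to 121 bases. FCER1G held none of the motifs. Over the 8 genes, the PU.1 letters were found in 6, beside 11.2% of all promoters, the C/EBP letters in 2 (FCGR2A and CD14), beside 33.2%, the AP-1 letters in 1 (CD14), beside 6.57%, and the composite in 0, beside 0.772%. For TLR4, only 22 bases of the window lie before the gene starts in GENCODE 29. Its PU.1 matches, at 225 to 34 bases before the RefSeq start, therefore lie inside the annotated gene. The whole CD14 window also lies inside its annotated gene. These matches describe short windows only, and binding was not measured in these libraries.

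Among the Fc receptors, FCGR2A fell with dnFOS. FCGR2A encodes a low-affinity receptor for IgG with an ITAM in its own tail (chromosome 1, 161505430 to 161524013, plus strand, GRCh38). Its level was 15.8 and 19.8 CPM in EV, 20.3 and 24.4 CPM in dnCEBP, and 9.57 and 7.93 CPM in dnFOS. Both dnFOS libraries lay below all others, and both dnCEBP libraries lay above both EV libraries. The log2 fold change was -1.01 ± 0.17 (SE, n = 2 per group) in dnFOS against EV, with an edgeR adjusted p of 0.000134, a change of -50.2% in level. Against dnCEBP it was -1.34 ± 0.17, with an edgeR adjusted p of 1.16e-06. The dnCEBP value against EV was 0.33 ± 0.15, with an edgeR adjusted p of 0.369, and was 0.17 without EV replicate 1 and 0.19 without dnCEBP replicate 2. Of the stretches of 75 bases in the longest FCGR2A transcript, 18% also occur in FCGR2B, FCGR2C or the overlapping AL590385.2, so reads shared between them are uncertain. FCGR2B, the inhibitory receptor, was itself low, with 2.56 CPM in both EV libraries and 0.774 to 1.56 CPM in the others.

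FCGR1A encodes the high-affinity IgG receptor (chromosome 1, 149782671 to 149792518, plus strand) and was near the lower end of what these libraries can show. The EV libraries held 18 and 22 of its reads, the dnCEBP libraries 19 and 18, and the dnFOS libraries 10 and 5. On scaled sizes this is 0.755 and 1.01 CPM in EV, 0.703 and 0.869 CPM in dnCEBP and 0.651 and 0.483 CPM in dnFOS. The difference of dnFOS from EV was -0.60 on the log2 scale, with a 95% interval from -1.88 to 0.68, and a difference within that interval was not detectable at this depth. Near-identical copies (FCGR1B and FCGR1CP among them) share 62.5% of its 75-base stretches, and antisense AC243772.2 covers 18.7% of its exon bases. Its value is therefore uncertain.

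Both adaptors fell with dnFOS. FCER1G encodes the common gamma chain of Fc receptors, which FCGR1A and the IgE receptor need at the surface (chromosome 1, 161215234 to 161220699, plus strand). It measured 8.22 and 10.0 CPM in EV, 8.33 and 8.83 CPM in dnCEBP and 5.73 and 3.96 CPM in dnFOS. The dnFOS libraries were the lowest and differed from each other more than the dnCEBP libraries did. The log2 fold change against EV was -0.88 ± 0.22 (SE, n = 2 per group), with an edgeR adjusted p of 0.00539. Against dnCEBP it was -0.79 ± 0.22, with an edgeR adjusted p of 0.0117. Without dnFOS replicate 2, the library with the fewest reads, the value against EV was -0.67 and no longer passed, with an edgeR adjusted p of 0.108. Without EV replicate 2 it was -0.75, with an edgeR adjusted p of 0.0537.

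TYROBP, also known as DAP12, serves as the adaptor of TREM and SIRP family receptors and others (chromosome 19, 35904401 to 35908295, minus strand). It was read at 57.2 and 54.8 CPM in EV, 57.0 and 50.1 CPM in dnCEBP and 40.4 and 41.6 CPM in dnFOS. The dnFOS libraries lay close together and below the other 4. The log2 fold change was -0.45 ± 0.10 against EV, with an edgeR adjusted p of 0.0034, and -0.39 ± 0.10 against dnCEBP, with an edgeR adjusted p of 0.0108. In dnFOS against EV, the median GC content was 54.63% among genes called lower, 39.85% among genes called higher and 47.68% among all genes tested. The longest TYROBP transcript has a GC content of 58.4%. With the trend over GC content and length removed, the value against EV was -0.23, with an edgeR adjusted p of 0.0931. For FCER1G, with a GC content of 48.2%, it was -0.84, with an edgeR adjusted p of 0.00409. The part of GC content in these differences was not tested.

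**Figure D3:**
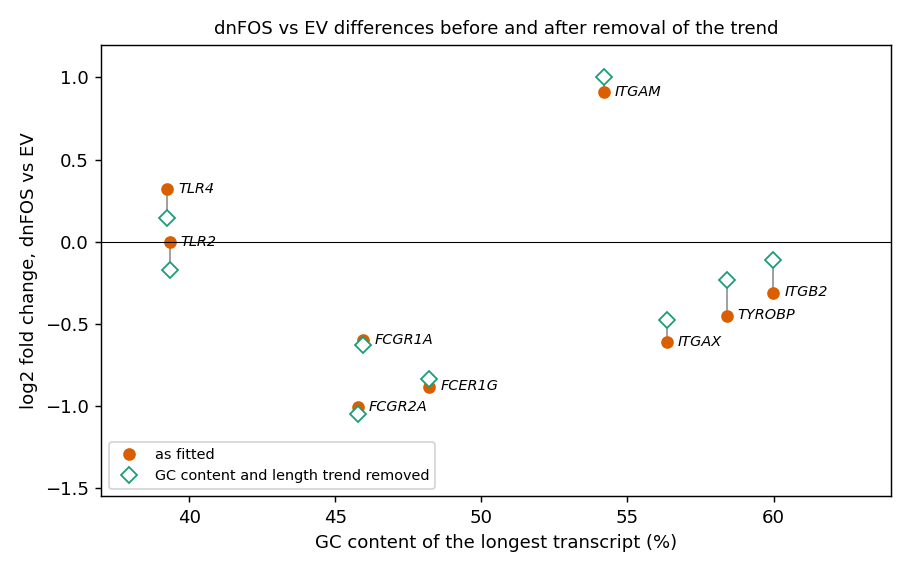
Log2 fold change of dnFOS against EV (vertical axis) by the GC content of the longest transcript in percent (horizontal axis) for the 9 tested genes, as fitted (orange circles) and with the trend over GC content and length removed (green diamonds). With the trend removed, TYROBP, ITGB2, ITGAX and TLR4 lay nearer to 0 (TLR4 from 0.32 to 0.14, ITGAX from -0.61 to -0.48), TLR2 moved to -0.17, and ITGAM, FCGR2A, FCGR1A and FCER1G each moved by less than 0.1.

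The integrin chains moved in opposite directions with dnFOS. ITGAM encodes the alpha chain CD11b, which with ITGB2 forms a complement receptor of monocytes and neutrophils (chromosome 16, 31259967 to 31332892, plus strand). It was at 18.6 and 13.0 CPM in EV, 21.2 and 21.5 CPM in dnCEBP and 30.0 and 29.6 CPM in dnFOS. The groups did not overlap, with EV lowest, and the EV libraries differed most from each other. The log2 fold change of dnFOS was 0.91 ± 0.15 (SE, n = 2 per group) against EV, which is 1.88-fold, with an edgeR adjusted p of 8.66e-05. Against dnCEBP it was 0.48 ± 0.14, with an edgeR adjusted p of 0.0226. In dnCEBP against EV it was 0.43 ± 0.14, with an edgeR adjusted p of 0.174, and it passed in 4 alternatives: without EV replicate 1 (0.72, edgeR adjusted p of 0.0305), with the trend over GC content and transcript length removed (0.49, edgeR adjusted p of 0.0457), and with a replicate block with or without that removal. Without EV replicate 2 it was 0.19, with an edgeR adjusted p of 0.761.

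ITGAX encodes CD11c, the alpha chain of a second complement receptor, found on monocytes, macrophages and dendritic cells. It lies next to ITGAM on the same strand (chromosome 16, 31355134 to 31382997). It was at 71.8 and 88.8 CPM in EV, 72.3 and 62.9 CPM in dnCEBP and 53.9 and 51.1 CPM in dnFOS. Both dnFOS libraries were below all others, while EV and dnCEBP overlapped. The log2 fold change of dnFOS was -0.61 ± 0.10 against EV, with an edgeR adjusted p of 0.000162, and -0.37 ± 0.10 against dnCEBP, with an edgeR adjusted p of 0.0163. With the trend over GC content and transcript length removed, the value against EV was -0.48 and still passed, with an edgeR adjusted p of 0.000279. Its level per kb was 1.39 and 1.45 times that of ITGAM in dnFOS, 2.35 and 2.74 times in dnCEBP, and 3.10 and 5.49 times in EV. With 2 libraries in each group an exact two-sided permutation test of such a ratio gives no p below 0.333.

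**Figure D4:**
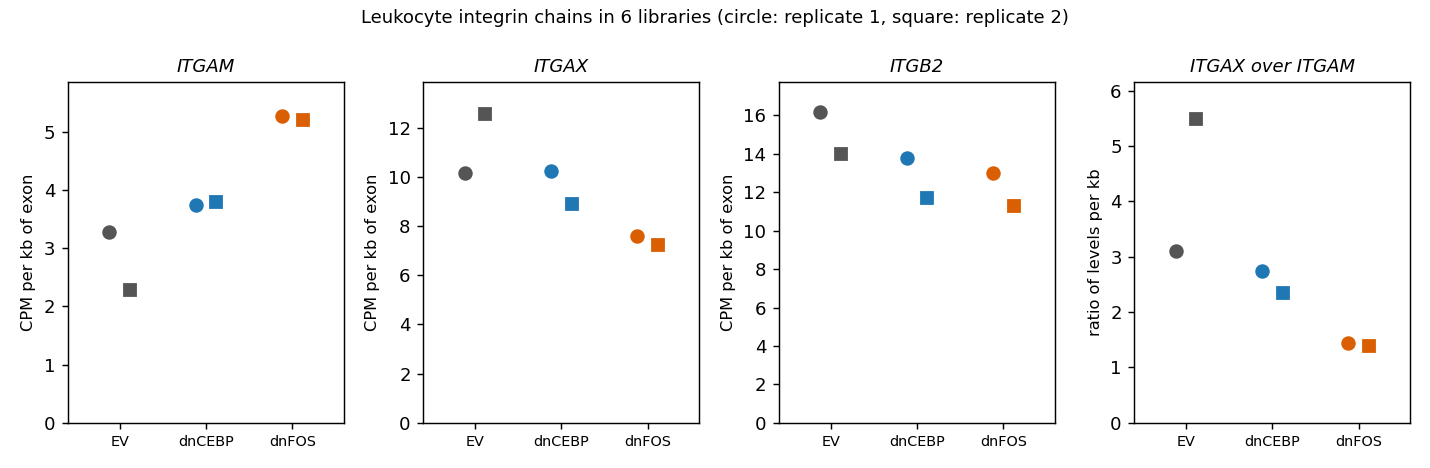
Levels of the 3 leukocyte integrin chains in CPM per kilobase of exon and the ratio of ITGAX to ITGAM (vertical axes, starting at 0) in each library, with replicate 1 as a circle and replicate 2 as a square. The ratio was 1.39 and 1.45 in dnFOS and at least 2.35 in every other library.

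ITGB2 encodes CD18, the beta chain that both alpha chains need to reach the surface (chromosome 21, 44885953 to 44931989, minus strand). Its level was 110 and 95.1 CPM in EV, 93.6 and 79.5 CPM in dnCEBP and 88.2 and 76.6 CPM in dnFOS. Both dnFOS libraries lay below both EV libraries, but they overlapped with dnCEBP. The log2 fold change of dnFOS against EV was -0.31 ± 0.10, with an edgeR adjusted p of 0.0307. The call was lost with the trend over GC content and transcript length removed (-0.11, edgeR adjusted p of 0.377; GC content 60.0%), with libraries scaled by their totals (-0.21), in DESeq2 and limma-voom, and without dnFOS replicate 2 or EV replicate 1. Antisense ITGB2-AS1 covers 4.46% of its exon bases, and the use of strand in counting is not given in the sources used here. Relative to the sum of ITGAM and ITGAX per kb, ITGB2 stood between 0.907 and 1.20 over all libraries, and the groups overlapped.

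The toll-like receptors did not pass the test in either comparison with EV. TLR2, a receptor for bacterial lipoproteins (chromosome 4, 153684070 to 153705702, plus strand), measured 10.5 and 12.2 CPM in EV, 8.96 and 10.7 CPM in dnCEBP and 11.8 and 10.7 CPM in dnFOS. The EV libraries overlapped with both other groups, and the difference of dnFOS from EV had a 95% interval from -0.36 to 0.36 on the log2 scale. TLR4, the receptor for lipopolysaccharide (chromosome 9, 117704175 to 117724730, plus strand), measured 22.1 and 18.3 CPM in EV, 15.7 and 18.1 CPM in dnCEBP and 24.7 and 25.8 CPM in dnFOS. The dnFOS libraries were the highest and the dnCEBP libraries the lowest. TLR4 was higher in dnFOS than in dnCEBP by 0.58 ± 0.14 on the log2 scale (SE, n = 2 per group), with an edgeR adjusted p of 0.00471. Against EV the difference of dnFOS was 0.32 ± 0.14, with an edgeR adjusted p of 0.126, and it passed only with libraries scaled by their totals (0.42, edgeR adjusted p of 0.0402), a scaling that also shifts the median of all genes to 0.102. It was 0.14 with the trend over GC content and transcript length removed and 0.18 without EV replicate 2, with edgeR adjusted p of 0.528 and 0.574.

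CD14 hands lipopolysaccharide to TLR4 and is the standard surface marker of monocytes (chromosome 5, 140631728 to 140633701, minus strand). Each EV library held 6 of its reads, the dnCEBP libraries 0 and 2, and the dnFOS libraries 1 and 0. A count of 0 allows up to 3 reads, or 0.111 to 0.290 CPM in these libraries. Pooled per group, the 2 reads of dnCEBP were 0.16 times the 12 reads of EV on scaled sizes (95% counting interval 0.0173 to 0.716). The single read of dnFOS gave 0.148 times EV (0.00347 to 1.00), so a fall in dnFOS was not detectable at this depth. The intervals cover counting error only, and no test over libraries was made.

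Several calls of dnFOS against dnCEBP were lost when 1 library was left out. FCGR2A passed under every alternative run in both comparisons with dnFOS. Without dnCEBP replicate 1, the log2 fold change against dnCEBP was -0.29 for TYROBP, -0.26 for ITGAX and 0.48 for TLR4, with edgeR adjusted p of 0.167, 0.219 and 0.0766. Without dnFOS replicate 2, FCER1G (-0.58, edgeR adjusted p of 0.169) and ITGAX (-0.33, edgeR adjusted p of 0.0894) no longer passed, and without dnCEBP replicate 2 FCER1G was at -0.75, with an edgeR adjusted p of 0.0514. ITGAM missed the threshold in DESeq2 (0.47, adjusted p of 0.063) and without any 1 of the 4 libraries compared, with edgeR adjusted p of 0.0623 to 0.104. TYROBP and ITGAX did not pass with scaling by library totals, nor TYROBP with the trend over GC content and transcript length removed.

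Taking the groups as sets of values, the libraries of dnFOS and EV did not overlap for 8 of the 9 tested genes, beside 56.7% of all genes tested, with 2 above (beside 28.3%) and 6 below (beside 28.4%). For dnCEBP and EV this held for 4 of 9, beside 42.8%, and for dnFOS and dnCEBP for 8 of 9, beside 54.5%, with 3 above (beside 28.6%) and 5 below (beside 25.9%).

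Genes that work with this set were counted from lists, 89 in all, of which 62 were tested. The lists held Fc receptors, mostly adaptor-linked receptors, ITAM signalling genes, integrins, toll-like receptors and their signalling, and other monocyte genes. In dnFOS against EV, 12 of the 62 passed (2 higher and 10 lower), or 19.4% beside 15% of all genes tested, with a median log2 fold change of -0.21. Scaling by library totals gave 5 higher and 7 lower. In dnCEBP against EV 0 passed, beside 1.07% of all genes tested, 10 of the 62 had an unadjusted p under 0.05, beside 11.9%, and DESeq2 and limma-voom also called 0. In dnFOS against dnCEBP 16 passed, or 25.8% beside 14.7%, with 3 higher (beside 6.83%) and 13 lower (beside 7.84%), and 7 higher and 5 lower under scaling by totals.

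Of the other Fc receptors, 5 of 9 were tested. Against EV 0 passed as fitted, beside 15% of all genes tested in dnFOS and 1.07% in dnCEBP. FCER1A, the ligand-binding chain of the IgE receptor that pairs with FCER1G, was abundant. It was at 106 and 99.9 CPM in EV, 92.3 and 101 CPM in dnCEBP and 88.5 and 85.9 CPM in dnFOS. Its log2 fold change in dnFOS against EV was -0.24, with an edgeR adjusted p of 0.0609. With the trend over GC content and transcript length removed it was -0.31 and passed, with an edgeR adjusted p of 0.00522. FCGR3A and FCGR3B, receptors of NK cells and neutrophils, had at most 3 reads in any library. Of a list of 15 receptors, most of which pair with TYROBP or FCER1G, 8 were tested. In dnFOS 1 passed, or 12.5% beside 15% of all genes tested. This was OSCAR, a collagen receptor that uses FCER1G, with 18.1 and 17.9 CPM in EV and 11.1 and 12.4 CPM in dnFOS. Its log2 fold change was -0.62 ± 0.16 with an edgeR adjusted p of 0.0075, and the call was lost with the trend over GC content and transcript length removed (-0.37, edgeR adjusted p of 0.087) and without dnFOS replicate 1 (-0.54, edgeR adjusted p of 0.0619). CLEC7A, which was on this list but signals through its own tail, did not pass as fitted (-0.60, edgeR adjusted p of 0.15). It did with that trend removed (-0.80, edgeR adjusted p of 0.043). TREM2, CLEC4E and LILRA5 had 0 reads in every library.

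All 12 ITAM signalling genes were tested and 4 fell in dnFOS, or 33.3% beside the 7.76% of all genes tested that were called lower. VAV1, an exchange factor for small GTPases, fell by 0.42 on the log2 scale (adjusted p 0.00131), from 121 and 129 CPM in EV to 98.0 and 88.8 CPM. PTPN6, an inhibitory phosphatase, fell by 0.36 (adjusted p 0.00536), INPP5D, an inhibitory inositol phosphatase, by 0.32 (adjusted p 0.00995), and the SRC family kinase LYN by 0.27 (adjusted p 0.032). The 4 genes thus included both activators and inhibitors of this pathway. SYK was at 69.9 and 67.6 CPM in EV and 80.6 and 63.2 CPM in dnFOS and did not pass. PTPN6 and INPP5D did not pass with the trend over GC content and transcript length removed, nor INPP5D and LYN with scaling by totals. BTK and LCP2 did not pass as fitted (-0.22 and -0.18, edgeR adjusted p of 0.0823 and 0.17). With that trend removed they did (-0.24 and -0.25, edgeR adjusted p of 0.0287 and 0.0224). Without EV replicate 1, the adjusted p was 0.0561 for PTPN6, 0.129 for INPP5D and 0.267 for LYN. Without dnFOS replicate 2 it was 0.104 for INPP5D and 0.16 for LYN, and without EV replicate 2 it was 0.0647 for LYN.

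Of the 15 other leukocyte integrins, ligands and activators, 14 were tested, and in dnFOS 1 rose and 3 fell, or 28.6% called beside 15% of all genes tested. ITGA4, the alpha chain that binds VCAM1 and fibronectin, rose by 0.47 ± 0.08 on the log2 scale (edgeR adjusted p 0.000306), from 287 CPM in both EV libraries to 384 and 409 CPM. ITGB7, one of its partner chains, fell by 0.62 (adjusted p 0.0014), ITGA5, the fibronectin receptor chain, by 0.45 (adjusted p 0.000567), and ICAM2, a ligand of integrins that hold ITGB2, by 0.54 (adjusted p 0.00152). Without EV replicate 1 the ICAM2 value was -0.39 and no longer passed, with an edgeR adjusted p of 0.0923. ITGAL, the alpha chain of the remaining main ITGB2 partner, was at 88.7 and 91.8 CPM in EV and 77.5 and 77.8 CPM in dnFOS, with an adjusted p of 0.0963. FYB1 did not pass as fitted (-0.24, edgeR adjusted p of 0.173) but did with the trend over GC content and transcript length removed (-0.425, edgeR adjusted p of 0.00427).

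Of the 12 other toll-like receptors and cofactors, 6 were tested and 1 rose in dnFOS, or 16.7% called beside 15% of all genes tested. TLR1, which pairs with TLR2, had 1.97 and 2.33 CPM in EV, 3.70 and 4.73 CPM in dnCEBP and 4.82 and 5.80 CPM in dnFOS. Its log2 fold change in dnFOS against EV was 1.29 ± 0.28 with an edgeR adjusted p of 0.0018. In dnCEBP against EV it was 0.96, with an edgeR adjusted p of 0.0778. The difference of dnFOS from dnCEBP was 0.33, with an edgeR adjusted p of 0.446, so the rise was not shown to be particular to dnFOS. TLR6, the other partner of TLR2, had 9.52 and 11.3 CPM in EV and 8.34 and 13.0 CPM in dnFOS, and LY96, which TLR4 needs to bind lipopolysaccharide, had 3.19 and 4.08 CPM in EV and 2.34 and 5.99 CPM in dnFOS. TLR7 and TLR8 had at most 1 read in any library. Of 11 toll-like receptor signalling genes, 10 were tested and 1 passed in dnFOS, or 10% beside 15% of all genes tested. This was TOLLIP, an inhibitor of the pathway, with a log2 fold change of -0.49 and an edgeR adjusted p of 0.0444. TOLLIP did not pass in DESeq2 and limma-voom, nor when any 1 of the dnFOS or EV libraries was left out. With the trend over GC content and transcript length removed it was -0.34 and did not pass, with an edgeR adjusted p of 0.149.

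Of the 15 other monocyte and macrophage genes, 7 were tested and 1 passed in dnFOS, or 14.3% beside 15% of all genes tested. This was LYZ, which encodes lysozyme. It had 78.5 and 76.1 CPM in EV, 64.9 and 74.3 CPM in dnCEBP and 53.2 and 61.0 CPM in dnFOS, a log2 fold change of -0.44 ± 0.10 with an edgeR adjusted p of 0.00233. CSF1R, the receptor that monocytes need for survival, was at 1.76 and 2.34 CPM in EV and 0.716 and 1.55 CPM in dnFOS and did not pass. Over a list of 6 monocyte markers, 3 were tested and CD163 was at 0. Their summed level was 79.4 to 82.0 CPM in EV, 67.2 to 76.1 CPM in dnCEBP and 54.4 to 63.2 CPM in dnFOS. Nearly all of this monocyte sum was LYZ, so it repeats the LYZ values above and is no separate result. A list of 7 neutrophil markers summed to 89.9 to 97.9 CPM in EV, 63.3 to 70.7 CPM in dnCEBP and 102 to 118 CPM in dnFOS, with 3 of the 7 at or under 3 reads in every library. Most of this sum was CSF3R, at 113 and 97.8 CPM in dnFOS, 92.1 and 83.4 CPM in EV and 65.64 and 58.55 CPM in dnCEBP. Against EV, CSF3R was called lower in dnCEBP (-0.50, edgeR adjusted p of 0.00421) and not called in dnFOS (0.26, edgeR adjusted p of 0.0538). By contrast, LTF was called lower in dnFOS (-2.21, edgeR adjusted p of 0.0214) and CAMP was at -2.01 there (edgeR adjusted p of 0.0645). Of 3 megakaryocyte markers, ITGA2B, itself an integrin alpha chain, was at 192 and 182 CPM in EV, 235 and 197 CPM in dnCEBP and 110 and 100.3 CPM in dnFOS, and GP9 and PF4 had at most 10 reads in any library. The summed level of 6 T and NK cell markers was 149 to 154 CPM in EV, 172 to 175 CPM in dnCEBP and 116 to 132 CPM in dnFOS. Most of it was CD3D, with 122 and 115 CPM in EV and 104 and 90.7 CPM in dnFOS, while CD3E had at most 4 reads in any library and NCAM1 was at 1.72 and 3.30 CPM in EV and 2.74 and 4.45 CPM in dnFOS. Markers of B cells summed to at most 1.93 CPM and those of erythroid cells to at most 2.997 CPM in any library. Their part in the results above was not tested.

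**Figure D5:**
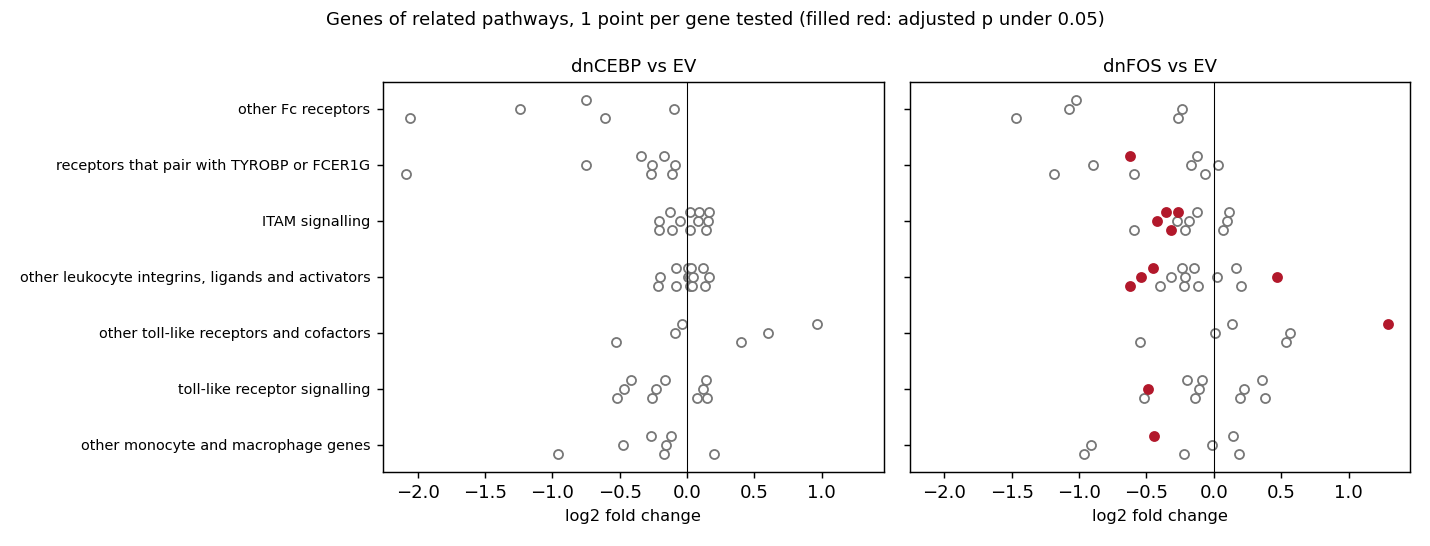
Log2 fold change (horizontal axis) of the 62 tested pathway genes, 1 point per gene, by list (vertical axis) in dnCEBP against EV and dnFOS against EV. Filled red points have an adjusted p under 0.05: there are 0 with dnCEBP and 12 with dnFOS, 10 of them on the lower side.

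The genes whose pattern was most like that of FCGR2A, the called gene with the largest change against EV, were ARHGAP6, MS4A6A, SLFN14, HDC and RGS1. They were found among 9966 genes with a mean of at least 5 CPM by the root mean square distance of log2 CPM values centred on each gene's mean over 6 libraries, which was 0.122 to 0.139 for these 5. HDC, which makes histamine, had a mean of 293 CPM over all libraries, a log2 fold change of -1.19 in dnFOS and of 0.24 in dnCEBP against EV. MS4A6A, a membrane protein of myeloid cells, had -0.98 and 0.50, and RGS1, a regulator of G protein signalling, -0.92 and 0.45. ARHGAP6, a GTPase-activating protein, had -1.24 and 0.26, and SLFN14 had -0.80 and 0.42.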

How the data were processed

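RNA-seq counts of 6 KO52 libraries, 2 each of EV, dnCEBP and dnFOS, were analysed. The authors depleted ribosomal RNA and sequenced paired ends, and deposited raw counts per gene as whole numbers without normalization. The submitters' processing notes name Trimmomatic, HISAT2, featureCounts (Subread) and hg38; their versions, the strand setting and the handling of reads that match several genes are not given in the sources used here. Of 60612 gene IDs, 58394 matched GENCODE 29 (GRCh38), which gave positions, exon lengths and GC content of the longest transcript.

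Counts were fitted with edgeR 4.0.16 in R 4.3.3: filterByExpr with a minimum count of 10 kept 15395 genes, TMM factors (0.956 to 1.05) scaled library sizes, and a robust quasi-likelihood model with 1 mean per group and no covariates had 3 residual degrees of freedom. Tests were two-sided and adjusted by Benjamini-Hochberg over all genes tested, and a gene was called at an adjusted p under 0.05. Mean values rest on n = 2 libraries. Alternatives used DESeq2 1.42.0 and limma 3.58.1 (voom), other scalings and filters, a replicate block, removal of a spline trend over GC content and length, and fits without each library. The fit was tested on simulated data. The text names all 10 genes, pathway genes called against EV, at most 8 a list, and the 5 genes nearest to FCGR2A. Other pathway genes, given for their levels or for their values under alternatives, were chosen after their values were seen. The genes and lists were chosen with earlier results of these data known.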

Additional observations from a re-analysis of the deposited data

How the results depend on the processing

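The groups hold 2 libraries each, and the dnFOS libraries are the shallowest. In dnFOS against EV, 4 to 6 of the 9 tested genes were called under every alternative run, beside 6 as reported, and 4 to 6 with 1 library left out; 2 higher and 4 lower were called with scaling by library totals. In dnCEBP against EV, 1 (ITGAM, higher) was called with the replicate block, with the trend over GC content and transcript length removed and with both, and 0 to 1 with 1 library left out. In dnFOS against dnCEBP, 2 to 6 were called with 1 library left out, 2 without dnCEBP replicate 1 and 3 without dnFOS replicate 2, and 4 (2 higher, 2 lower) with scaling by totals. Of the pathway genes, whose alternatives were added after seeing the data, 2 were called in dnCEBP against EV without a low-count filter and 2 with the replicate block, and 0 to 2 with 1 library left out. With the replicate block 20 were called in dnFOS against EV. With 1 library left out, 8 to 15 were called in dnFOS against EV and 8 to 14 in dnFOS against dnCEBP.

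Signs that turned were all of values that did not pass. In dnCEBP against EV, TYROBP was 0.024 without dnCEBP replicate 2, and FCGR1A 0.042 and FCER1G 0.053 without EV replicate 2; with 1 library left out their lowest values were -0.161, -0.364 and -0.226. In dnFOS against EV, TLR2 was 0.094 with library totals, 0.010 with limma-voom, 0.007 with the replicate block, 0.058 without dnFOS replicate 2 and 0.094 without EV replicate 2, and -0.108 without EV replicate 1. In dnFOS against dnCEBP, ITGB2 was 0.052 with library totals, 0.056 without dnCEBP replicate 1 and 0.027 without dnFOS replicate 2, and -0.180 without dnCEBP replicate 2. The cause was not tested. Of 456 values of single genes of the set under the alternatives, 414 kept direction and side of the threshold, 26 lost a call, 5 gained one and 11 turned.

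Over all genes, 165 were called in dnCEBP against EV as reported, 297 with only the 2 groups fitted, 488 with the replicate block, 262 with the trend removed, 309 with both, 255 without a low-count filter and 33 to 314 with 1 library left out. In dnFOS against EV 2309 were called, and 972 to 2426 with 1 library left out, and in dnFOS against dnCEBP 2259, and 1182 to 2262. Same-numbered libraries deviated from their group means with correlations of 0.017 to 0.088, so the numbers were not taken as pairs.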
